A study of Rattus norvegicus with 8 samples.

Results

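The genes described here are those of the Wnt pathway on the array, that is 46 probes of 44 gene symbols among the 22523 probes measured. They were found by a rule on names, as the probes whose symbol is that of a Wnt ligand, a Frizzled, Lrp5, Lrp6 or Ror receptor, a secreted Sfrp, Frzb, Dkk or Wif1 inhibitor, a Dvl, Axin, Apc or Gsk3b mediator, a Tcf7 transcription factor or a Wisp protein. Earlier results of these data were known when the rule was chosen. By role they are 20 probes of ligands, 9 of receptors, 8 of secreted inhibitors, 6 of cytoplasmic mediators, 1 of a transcription factor and 2 of the CCN family, in which the array annotation keeps the older names Wisp1 and Wisp2 for Ccn4 and Ccn5. Fzd7 and Wnt5b have 2 probes each.

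The study asked which transcripts differ between the enamel organ that lays down the enamel matrix (secretory stage) and the one that later removes that matrix and hardens the mineral (maturation stage). Each of 4 male Wistar rats (Wistar Hannover in the methods of the study), aged 4 weeks, gave total RNA of both stages from its mandibular incisors, so that there were 4 secretory-stage and 4 maturation-stage samples, each on its own RatRef-12 bead array. The animals carried no transgene and received no treatment according to the labels and methods. The tissue was the multicellular layer lifted from the enamel surface, which holds ameloblasts and other cells beside them, and in such bulk samples fewer cells of a type and less RNA per cell cannot be told apart.

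Wnt proteins are secreted, lipid-modified ligands that bind Frizzled receptors together with the co-receptors Lrp5 and Lrp6, or with Ror2 in branches of the pathway that do not use β-catenin. In the β-catenin branch, Dvl proteins pass the signal on and stop the complex of Axin, Apc and Gsk3b from marking β-catenin for destruction, after which β-catenin acts with Tcf and Lef factors in the nucleus, and Axin2 and Tcf7 are among its widely used target genes. In teeth the pathway is known for its part in the early budding and shaping of the tooth germ and in the renewal of the epithelium of continuously growing incisors.

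The labels were checked before the results. Correlations between arrays were taken over the 11233 probes detected on at least 4 arrays. For each of the 8 arrays they averaged 0.991 to 0.994 with the other arrays of its stage. With the arrays of the other stage they averaged 0.935 to 0.947. Titles, descriptions and tissue labels were followed for the stage, although 1 further label, the source, gives the secretory stage for maturation replicates 2, 3 and 4. Klk4, Tfrc and other maturation ameloblast markers rose in 8 of 10 probes, whereas 3 of 5 secretory ameloblast probes fell (Enam, Mmp20 and Dspp, the last also a gene of dentin) and those of Amelx and Ambn were not called. Enam stood at 9.08 and 8.22 in maturation replicates 1 and 4 but at 5.17 and 5.53 in replicates 2 and 3. Leaving out maturation replicates 1 and 4 together kept the calls of 10 of the 11 Wnt pathway probes called below. The summed signals of an array ran from 11881691 to 12046793 in the secretory stage and from 13355073 to 16122665 in the maturation stage, before normalization.

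All values below are normalized log2 signals, and a difference is maturation minus secretory, so that a difference of 1 is a doubling. A probe was called where limma gave an adjusted p below 0.05 (Benjamini-Hochberg over all 22523 probes) and the fold was at least 1.8. A probe counted as detected on an array where its detection p was below 0.05. Signals of different probes depend on the probe as well as on the transcript and were not set against each other.

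Of the 46 probes, 11 were called, 5 of them higher and 6 lower in the maturation stage. These are 23.9% of the probes, where 7.75% of all probes on the array were called (4.6% higher and 3.15% lower). Without the fold threshold 16 passed in limma, 7 higher and 9 lower, which is 34.8% against 26.9% of all probes. The 4 values of one stage lay entirely above those of the other in 15 probes, or 32.6%, where the share over all probes was 27.7%. The median difference was -0.01, the same as over all probes, while the median size of a difference was 0.18 against 0.12. The rises were those of 3 ligands, 1 receptor and Wisp2, and the falls those of 1 ligand, 2 inhibitors, Axin2, Tcf7 and Wisp1, as the plot of all differences by role shows. Signal was detected on all arrays for 19 of the probes and on none for 13, or 28.3%, where 40.0% of all probes were detected on none. The shares above are over all probes, detected or not, and were not adjusted for this.

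**Figure D1:**
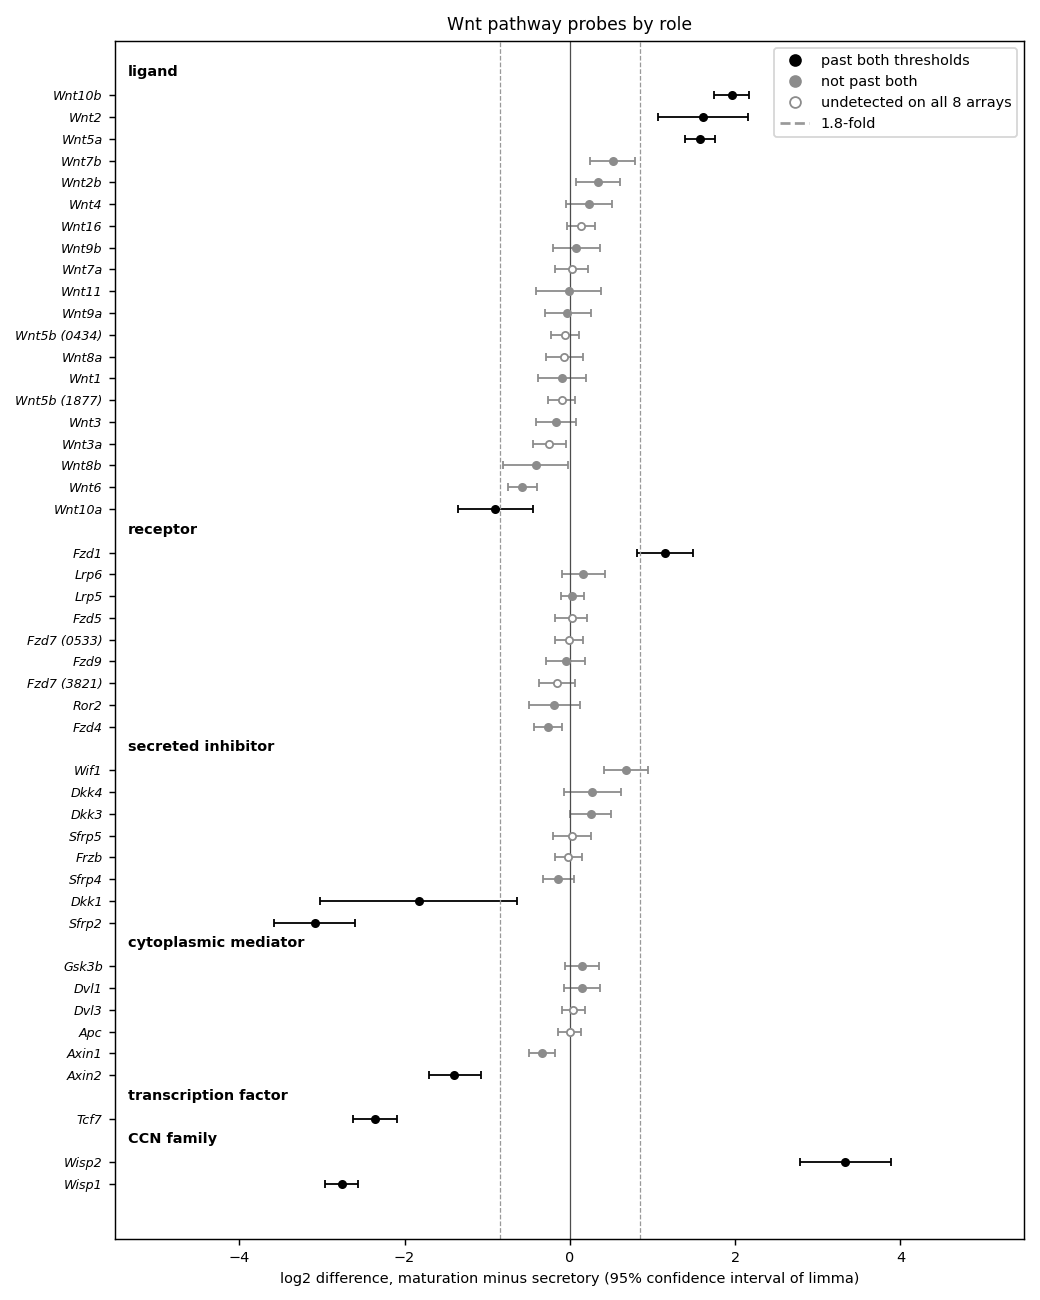
Log2 difference between the stages (x axis, maturation minus secretory) with its 95% confidence interval from limma for each of the 46 Wnt pathway probes (rows, grouped by role; the last digits of the probe number tell apart 2 probes of one gene). Black points passed both thresholds, open points were undetected on all 8 arrays, and the dashed lines stand at 1.8-fold; 5 black points lie to the right and 6 to the left.

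Among the ligands, 3 rose and 1 fell. Wnt10b (chromosome 7 in the annotation of the array), a ligand known for acting through β-catenin and for favouring bone over fat formation, had secretory-stage signals of 6.27, 6.09, 5.95 and 6.36 and maturation-stage signals of 8.06, 8.25, 8.05 and 8.16. The stages lay far apart, and the rats differed little from each other. Wnt10b rose by 1.96 (standard error 0.095), or 3.89-fold, and by 1.79 to 2.16 within single rats, with an adjusted p of 5.52e-07 from limma. Without background correction the rise was 1.17, and the deposited secretory-stage signals were 142 to 155. Wnt5a (chromosome 16), the best known ligand of the branches without β-catenin, stood at 8.25, 8.46, 8.62 and 8.36 and then at 9.95, 10.03, 10.01 and 9.98. Its 4 maturation-stage values lay close together and all above the secretory-stage values. The rise of 1.57 (adjusted p = 7.92e-07 from limma) was made up of 1.39 to 1.71 in the single rats.

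Wnt2 (chromosome 4), a ligand of the β-catenin branch that is typical of mesenchyme, was detected on only 2 secretory-stage arrays, where its signals were 4.90, 4.92, 5.33 and 5.08. On the maturation-stage arrays, all with detection, they were 7.24, 6.58, 5.94 and 6.91. The stages did not overlap, but the maturation-stage values were scattered over more than 1 log2 unit. Wnt2 rose by 1.61 (standard error 0.242; 3.06-fold; adjusted p = 7.23e-04 from limma), by as little as 0.61 in rat 3 and as much as 2.34 in rat 1. Without background correction the difference was 0.66, short of 1.8-fold.

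Wnt10a (chromosome 9) is the ligand in this family best known from teeth, since mutations of it in people lead to missing teeth. Its secretory-stage signals of 6.51, 5.80, 5.89 and 6.28 were followed by 5.21, 5.20, 4.81 and 5.66, with detection on 3 of the 4 maturation-stage arrays. The groups were separate by a narrow margin, that of 5.66 in maturation replicate 4 against 5.80 in secretory replicate 2. The fall was 0.90 on the log2 scale (difference -0.90, standard error 0.199; 1.86-fold; adjusted p = 0.00731 from limma), just past the fold threshold. It no longer reached that threshold without secretory replicate 1 (-0.77), secretory replicate 4 (-0.85) or maturation replicate 3 (-0.76). Nor did it with normexp without controls (-0.70), without background correction (-0.33), with an offset of 50 (-0.54) or with median scaling (-0.72). The deposited signals, before normalization, ran from 137 to 160 in the secretory stage and from 117 to 152 in the maturation stage and did overlap.

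Of the ligands that were not called, Wnt6 and Wnt7b differed past the adjusted p alone. Wnt6, an epithelial ligand, was lower, with 8.97, 8.68, 8.70 and 8.68 against 8.10, 8.16, 8.25 and 8.20, a difference of -0.58 (adjusted p = 3.78e-04 from limma). Wnt7b, also a ligand of epithelia, was higher by 0.52 (adjusted p = 0.0102 from limma), with detection on 1 secretory-stage and all 4 maturation-stage arrays. For both the stages did not overlap, although neither reached 1.8-fold. Wnt2b, a close relative of Wnt2, differed by 0.34 (95% confidence interval 0.07 to 0.61, adjusted p = 0.0633 from limma), and it was detected on 1 and on 4 arrays of the stages. Wnt4, a ligand known from kidney and gland development, had signals of 9.38 ± 0.237 and 9.61 ± 0.163 (SD, n = 4 each), a difference of 0.23 with an interval from -0.05 to 0.51.

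Wnt11, detected on all arrays, had a difference of -0.01, with a wide interval from -0.41 to 0.38. Wnt1, Wnt3, Wnt8b, Wnt9a and Wnt9b were detected on some arrays of a stage only, and their differences lay between -0.41 (Wnt8b) and 0.08 (Wnt9b). Both probes of Wnt5b, and those of Wnt3a, Wnt7a, Wnt8a and Wnt16, were undetected on all 8 arrays.

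Several of these ligands sit side by side in the gene table of the GRCr8 assembly, as Wnt genes do in mammals generally. Wnt10b, which rose by 1.96, is the neighbour of Wnt1, which had a difference of -0.10 and was detected on 2 arrays of each stage. Wnt10a and Wnt6 form another pair, and both were lower, by 0.90 and 0.58 on the log2 scale (differences -0.90 and -0.58). Wnt3 with Wnt9b and Wnt3a with Wnt9a held no called member.

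A single receptor rose. Fzd1 (chromosome 4), a Frizzled that can pass on β-catenin signals, had signals of 9.59, 9.92, 9.84 and 9.34 in the secretory stage and of 10.54, 10.90, 11.11 and 10.72 in the maturation stage. Every maturation-stage value lay above every secretory-stage value. The rise of 1.15 (standard error 0.152; 2.22-fold; adjusted p = 3.29e-04 from limma) was present in each rat, at 0.95 to 1.38.

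The co-receptors moved little. Lrp5 had a difference of 0.03 with an interval from -0.11 to 0.17, which bounds any change well under the fold threshold, and Lrp6 one of 0.16 (interval -0.10 to 0.42). Fzd9 had a difference of -0.05. Fzd4, detected on 3 secretory-stage and no maturation-stage arrays, was at least 1.13-fold lower in the maturation stage as processed here (fitted difference -0.27, adjusted p = 0.0226 from limma), short of the fold threshold. It was named after its values were seen, as was Ror2, the receptor through which Wnt5a signals in many tissues, which was detected on 3 secretory-stage arrays and 1 maturation-stage array and had a difference of -0.19 (interval -0.50 to 0.12). Fzd5 and both Fzd7 probes were undetected on all arrays. The gene ID of the Fzd7 probes belongs to Cdk15 in the current gene table, so that their target is uncertain.

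**Figure D2:**
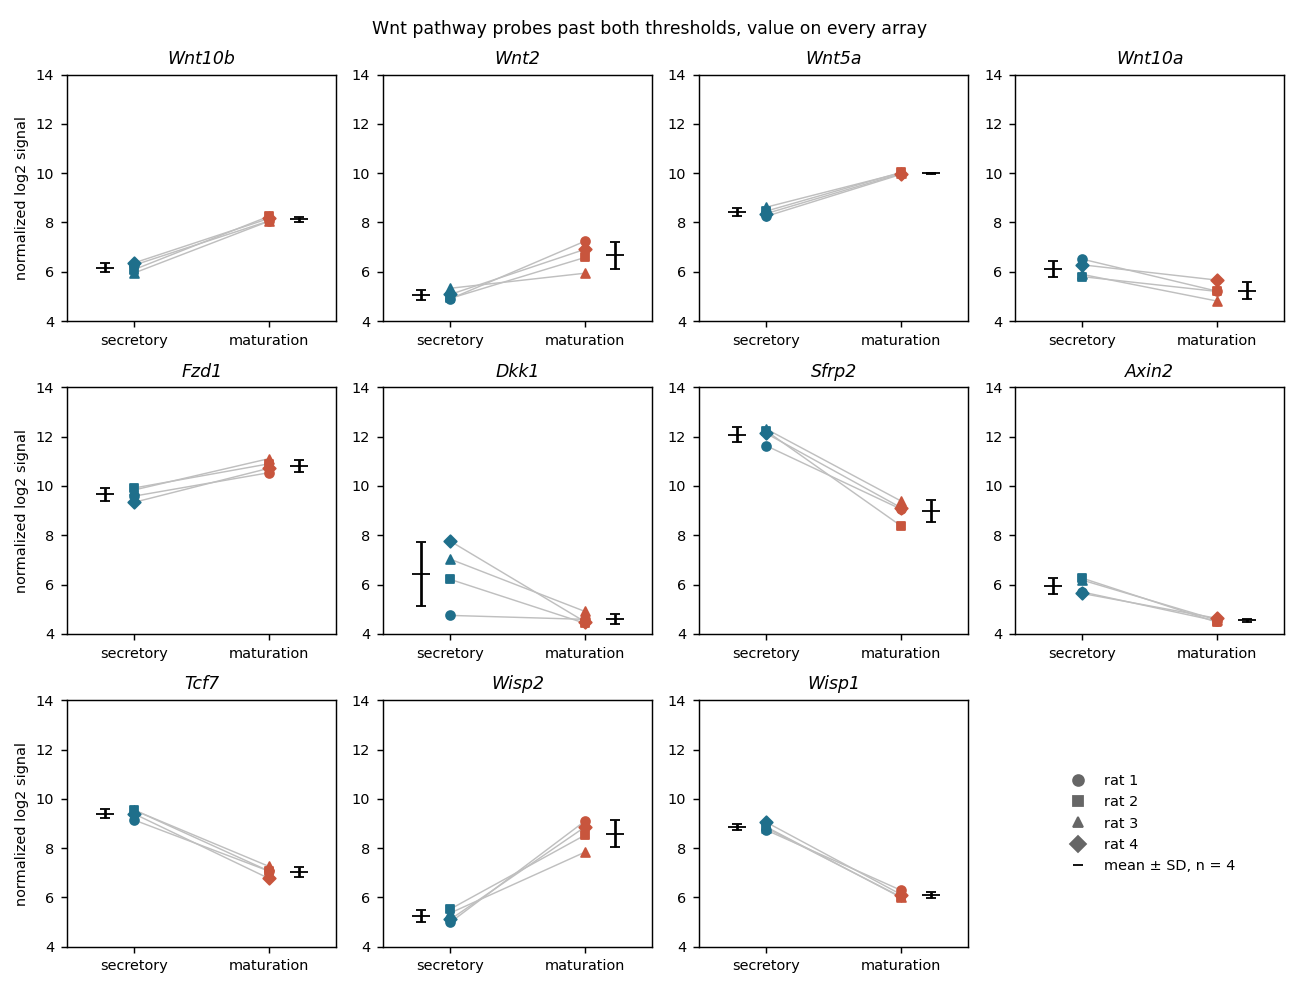
Normalized log2 signal (y axis) of the 11 called Wnt pathway probes on every array, with the stages on the x axis, a marker shape and a grey line for each rat, and black bars for the mean ± SD of the 4 arrays. The stages are separate in every panel but that of Dkk1, where the value of rat 1 in the secretory stage lies among the maturation-stage values.

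The secreted inhibitors held the strongest fall among the 46 probes. Sfrp2 (chromosome 2) codes for a soluble protein with a Frizzled-like domain that binds Wnt ligands outside the cell. It had signals of 11.63, 12.23, 12.31 and 12.13 in the secretory stage and of 9.06, 8.38, 9.39 and 9.12 in the maturation stage. All 4 rats showed the difference, by 2.57 to 3.86 log2 units (differences -2.57 to -3.86), and the stages lay more than 2 units apart. The mean fell by 3.09 on the log2 scale (standard error 0.219), or 8.51-fold, with an adjusted p of 5.72e-06 from limma.

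Dkk1 (chromosome 1) codes for an inhibitor that binds Lrp5 and Lrp6. Its secretory-stage signals were 4.75, 6.21, 7.03 and 7.76, the first of them undetected, and its maturation-stage signals of 4.59, 4.43, 4.91 and 4.49 were all undetected. The rats thus covered a wide range in the secretory stage, and that of rat 1 overlapped with the maturation stage. By limma the adjusted p was 0.0284 for a fitted difference of -1.83 (standard error 0.529, interval -3.02 to -0.64). With the maturation stage at the lowest signals of detected probes Dkk1 was 2.80-fold lower, a bound for this processing only. A two-sided exact permutation test of this probe alone gave p = 0.0571, where the smallest p that 4 against 4 arrays allow is 0.0286. That test did not use the pairing of the stages within a rat. Within single rats the differences ran from -0.16 to -3.27, and with the rat as a block the adjusted p of limma was 0.0213. The call was lost without secretory replicate 3 (-1.63, adjusted p = 0.0781 from limma), secretory replicate 4 (-1.39, 0.0554), or maturation replicate 1 (-1.83, 0.0585), 2 (-1.77, 0.0703) or 4 (-1.79, 0.0691), and without 1 and 4 together (-1.77, 0.151). It was also lost without background correction (-0.80), with an offset of 50 (-1.13, adjusted p = 0.0656 from limma) and under the methods' t-test (adjusted p = 0.108).

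The order of the secretory-stage arrays for Dkk1 was also that of 2 bone and dentin genes, and of 4.57% of the 9540 probes detected on all secretory-stage arrays (4.86% had the reverse order). Bglap2, the gene of osteocalcin, had signals of 11.11, 13.03, 13.73 and 13.98 on the same arrays, and Phex, a peptidase of osteocytes and odontoblasts, had 5.14, 5.39, 6.02 and 6.61. Dmp1, a matrix protein of the same cells, stood at 9.33, 9.37, 11.30 and 11.16. Among the genes of the other lists detected on all secretory-stage arrays, Sostdc1, Notum, Ruvbl1 and Csnk2a1 of the Wnt pathway, the fibroblast gene Lum and the cell cycle gene Aurkb shared the order of Dkk1 as well, and so did Rspo3, Wnt7b and Wnt9a, which were detected on 3, 1 and 1 of these arrays. Ibsp (6.38, 6.97, 6.92 and 6.93), Spp1 (9.78, 10.69, 10.07 and 11.01) and Alpl (12.53 to 12.66) did not follow that order, and Dspp, a dentin protein gene listed here with the secretory ameloblast markers, ran the other way (10.68, 10.30, 9.85 and 9.33). These genes were compared with Dkk1 after their values were seen. The mean of the 8 odontoblast and osteoblast probes ran from 7.93 to 8.94 over the secretory-stage arrays and from 9.17 to 9.35 over the maturation-stage arrays, and 2 of the 8 were called, both higher in maturation. In the maturation stage Bglap2 was at 12.74 to 12.90, while Dkk1 and Dspp were undetected. As processed here Dspp was at least 34-fold lower than in the secretory stage. Sp7, a defining factor of osteoblasts, was undetected on all 8 arrays, and Runx2, another, was detected on 1. The part of such cells in the Dkk1 values was not tested.

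**Figure D3:**
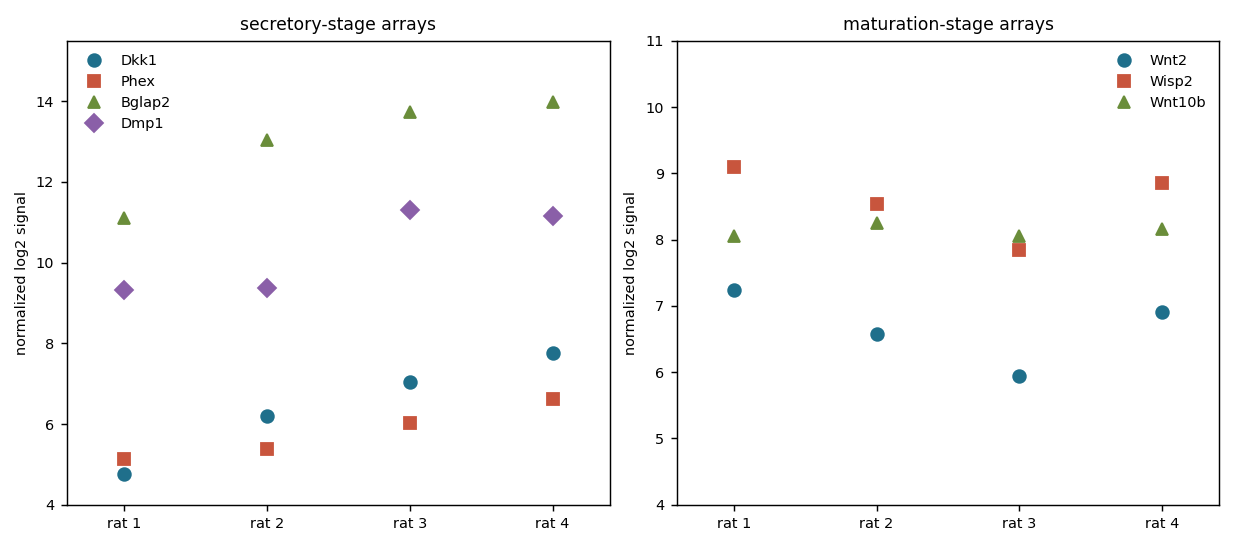
Normalized log2 signal (y axis) by rat (x axis) of selected probes within one stage, on the left Dkk1 with the bone and dentin genes Phex, Bglap2 and Dmp1 in the secretory stage, and on the right Wnt2 and Wisp2, with Wnt10b as a probe that varied little, in the maturation stage. Dkk1, Phex and Bglap2 are lowest in rat 1 and highest in rat 4, while Wnt2 and Wisp2 are both highest in rat 1 and lowest in rat 3. Not drawn are Ibsp, Spp1 and Alpl, which did not follow the order of Dkk1, and Dspp, which ran the other way.

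Wif1, a secreted protein that captures Wnt ligands, was higher in maturation, at 11.15, 10.76, 10.67 and 10.89 against 10.01, 10.22, 10.38 and 10.15. The stages did not overlap. Its difference of 0.68 (interval 0.41 to 0.94, adjusted p = 0.00166 from limma) was 1.60-fold and missed the fold threshold. Dkk3, a relative of Dkk1 with an unsettled role in the pathway, had a difference of 0.25 (interval 0.00 to 0.50), and the probe annotated as Dkk4 one of 0.27 (interval -0.07 to 0.62). The gene ID of the latter is that of Dkk2 in the current gene table. Sfrp4, with signals of 9.17 ± 0.107 and 9.04 ± 0.127 (SD, n = 4 each), had a difference of -0.14 (interval -0.32 to 0.05). Frzb and Sfrp5 were undetected on all arrays.

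In the cytoplasm, the scaffold Axin2 fell while the enzyme and adaptors of the pathway differed by less than the fold threshold. Axin2 (chromosome 10), which restrains the pathway and is itself switched on by it, had secretory-stage signals of 5.70, 6.26, 6.18 and 5.64, all detected, and maturation-stage signals of 4.52, 4.47, 4.56 and 4.63, all undetected. The stages were apart by about 1 log2 unit. Axin2 had a fitted difference of -1.40 with an adjusted p of 5.43e-05 from limma. With the maturation stage at the lowest signals of detected probes it was 1.99-fold lower, a bound for this processing only. The secretory-stage signals were themselves near the background. With an offset of 50 the difference was -0.74 and with no background correction -0.52, both short of 1.8-fold.

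Axin1, the constant form of the scaffold, was lower by 0.34 on the log2 scale (difference -0.34, adjusted p = 0.00472 from limma), a 1.27-fold difference with no overlap between the stages. Gsk3b, the kinase that marks β-catenin, differed by 0.15 with an interval from -0.06 to 0.35, and the adaptor Dvl1 by 0.15 with an interval from -0.07 to 0.37. The means of Gsk3b were 8.06 ± 0.165 and 8.21 ± 0.0998 and those of Dvl1 8.45 ± 0.175 and 8.60 ± 0.115 (SD, n = 4 each). Apc and Dvl3 were undetected on all arrays.

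Tcf7 (chromosome 10), the one transcription factor found by the naming rule, codes for a DNA-binding partner of β-catenin. Its signals went from 9.14, 9.55, 9.54 and 9.39 in the secretory stage to 7.07, 7.07, 7.26 and 6.77 in the maturation stage, with detection throughout. The lowest secretory-stage value was almost 2 log2 units above the highest maturation-stage value. Tcf7 fell by 2.36 on the log2 scale (standard error 0.122), or 5.13-fold, with an adjusted p of 8.04e-07 from limma, and by 2.07 to 2.62 in the single rats (differences -2.07 to -2.62).

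The genes of this family that the array lists under other symbols included 2 more Tcf factors, neither of them called. Tcf7l2 was lower by 0.79 on the log2 scale (difference -0.79, interval -1.12 to -0.45, adjusted p = 0.00305 from limma), with detection on 3 of 4 maturation-stage arrays. Tcf7l1 had a difference of 0.39 (interval 0.04 to 0.74, adjusted p = 0.104 from limma). Porcn, the enzyme that attaches the lipid to Wnt ligands, went from 9.34, 9.45, 9.54 and 9.23 to 8.83, 8.79, 8.77 and 8.76, a difference of -0.60 without overlap (adjusted p = 1.83e-04 from limma). Fzd8 differed by -0.22, Ccn6 by -0.17 and Dkkl1 by -0.11, while Ror1 was undetected on all arrays. Of these 7 probes only Tcf7l2 and Porcn passed the adjusted p, and neither reached 1.8-fold.

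The 2 CCN family genes moved in opposite directions, and by more than most of the pathway. They code for secreted matricellular proteins, and both were first described as genes induced by Wnt1. Wisp1 (Ccn4, chromosome 7) had signals of 8.73, 8.86, 8.82 and 9.05 in the secretory stage and of 6.29, 6.0, 6.02 and 6.12 in the maturation stage. The 4 rats were close to each other in both stages, and Wisp1 fell by 2.76 on the log2 scale (standard error 0.0893), or 6.76-fold, with an adjusted p of 5.54e-08 from limma. Without background correction the difference was -1.78. Wisp2 (Ccn5, chromosome 3) had signals of 4.99, 5.53, 5.37 and 5.11, detected on 3 arrays, and then of 9.10, 8.53, 7.84 and 8.86. This was a rise of 3.33 (standard error 0.246; 10.1-fold; adjusted p = 7.44e-06 from limma).

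The size of the rise of Wisp2 rests on secretory-stage signals near the background. Its deposited signals were 114 to 129 in the secretory stage and 329 to 823 in the maturation stage, and without background correction the rise was 1.87. As processed here it was the largest difference among the 46 probes, but that of Sfrp2 was larger without background correction (-2.88 against 1.87), with normexp without controls (-3.06 against 2.87), with an offset of 50 (-3.0 against 2.54) and without maturation replicates 1 and 4 (-3.19 against 2.93). Within the maturation stage, Wisp2, Wnt2, Wif1 and Fzd9 shared their order of arrays, from replicate 1 through 4 and 2 to 3. That is also the order of the summed signals of these arrays, and 7.41% of the 10147 probes detected on all maturation-stage arrays had it. The part of the summed signal in these values was not tested.

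Markers of other cell types were also read, since the samples are bulk tissue. The mean of 11 macrophage and leukocyte probes ran from 7.11 to 7.32 in the secretory stage and from 8.28 to 8.66 in the maturation stage, with 8 of the 11 called higher. Over 13 fibroblast and dental mesenchyme probes the mean was 11.94 to 12.22 and then 12.28 to 12.37. Among them 1 (7.69%, against 7.75% of all probes) was called, Fn1, which was higher. By the adjusted p alone 4 were higher and 1, Postn, lower. Of the endothelial probes 1 of 8 (12.5%) was called, Vwf, which was higher. None of the 6 cell cycle probes was called, although all 6 passed the adjusted p of limma and 5 of these were lower. The part of such cells in the differences of the Wnt pathway probes was not tested.

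As a description of sequence, the promoters of the members were searched for CTTTGA, the core of the sites to which Tcf and Lef factors bind, on both strands. RefSeq promoters of GRCr8, from 250 bases before to 50 after the start of the gene, were at hand for 32 of the members, and 4 of them, or 12.5%, held the letters, where 4353 of 27457 promoters (15.9%) did. They were in 3 of the 5 members called lower, in 0 of the 3 called higher and in 1 of the 24 not called (Wnt8a). These numbers are small, a match is not a site in use, and no binding was measured here. The 3 promoters shown, of Axin2, Dkk1 and Tcf7, were picked after the calls as those of members called lower that hold the letters. All 3 genes are known targets of the pathway, but the call of Dkk1 was lost in 9 of 17 settings. The promoter of Wif1, a known target that was higher without a call, holds no match, and Wisp1, Wisp2 and Wnt10b had no promoter at hand. The letters CTTTGA, or TCAAAG where they lie on the other strand, are in capitals. The stretch of Axin2 is chr10:94398535-94398784 on the plus strand, that of Dkk1 chr1:237798651-237798840 on the minus strand and that of Tcf7 chr10:36954270-36954339 on the minus strand, of which the first 2 end at the start of the gene and the last 10 bases of Tcf7 lie after it.
Axin2: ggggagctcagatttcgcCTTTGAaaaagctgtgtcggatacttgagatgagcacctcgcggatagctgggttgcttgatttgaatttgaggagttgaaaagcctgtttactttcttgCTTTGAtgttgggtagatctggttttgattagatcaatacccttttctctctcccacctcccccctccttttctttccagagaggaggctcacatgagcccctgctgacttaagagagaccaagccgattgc
Dkk1: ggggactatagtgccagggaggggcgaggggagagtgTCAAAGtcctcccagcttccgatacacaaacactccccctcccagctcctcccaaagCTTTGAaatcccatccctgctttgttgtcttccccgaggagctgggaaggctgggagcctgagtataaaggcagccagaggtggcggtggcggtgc
Tcf7: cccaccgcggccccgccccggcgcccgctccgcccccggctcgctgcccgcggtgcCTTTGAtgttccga

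Axin2 and Dkk1 hold 2 matches each and Tcf7 holds 1, which lies over its start. Sfrp2 and Wnt10a, the other members called lower for which a promoter was at hand, hold none, and neither do Fzd1, Wnt2 and Wnt5a, which were called higher.

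Further genes of the pathway were taken from a list of 110 symbols, of which 97 probes of 95 genes were on the array. The list was drawn up with earlier results of these data known. In this list 3 probes were called higher and 8 lower, that is 11.3% against 7.75% of all probes, and 30.9% passed the adjusted p alone, against 26.9%. β-catenin itself (Ctnnb1) had signals of 10.76 ± 0.0525 and 10.59 ± 0.199 (SD, n = 4 each), a difference of -0.17 with an interval from -0.39 to 0.04. Lef1, a Tcf relative known from early tooth buds, had a difference of 0.25 (interval -0.03 to 0.53) and was detected on 2 secretory-stage and 4 maturation-stage arrays. Neither was called.

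Of the 8 that fell, Celsr2, an adhesion receptor that takes part in orienting cells within a sheet, had signals of 9.63, 9.44, 9.52 and 9.24 in the secretory stage and of 5.88, 5.75, 6.01 and 5.84 in the maturation stage, a difference of -3.58, or 12-fold (adjusted p = 2.41e-08 from limma). Its deposited signals were 553 to 720 and then 157 to 172, and without background correction the difference was -2.39. Its relative Celsr1 differed by -1.49, the membrane protein Vangl2 by -1.46 and Prickle1, a cytoplasmic partner of Vangl2, by -0.91. The stages did not overlap in any of the 4. Celsr1 was detected on 1 maturation-stage array and did not pass without background correction (-0.54), Celsr3 was undetected on all arrays, and Prickle2 (0.18) and Prickle3 (-0.45) were not called. The receptor Ryk (-0.59), Daam1 (-0.14) and Daam2 (0.03), which also have a part in orienting cells, were not called. Genes with this role were not counted as a group.

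The other 4 that fell have varied roles. Gpc3, a cell-surface proteoglycan that binds Wnt ligands, fell by 2.54 on the log2 scale (difference -2.54, adjusted p = 5.88e-07 from limma), from 12.73 ± 0.0419 to 10.18 ± 0.283 (SD, n = 4 each). Dact2, which binds Dvl proteins, differed by -2.42 (-1.55 without background correction), and Sostdc1, a secreted inhibitor known for limiting tooth number, by -2.25. Csnk1g3, a casein kinase of the family that acts on Lrp6, differed by -0.90, near the fold threshold, which it missed without background correction (-0.79). The 3 that rose were Sulf2, which trims sulfate groups from proteoglycans, by 1.22, Tax1bp3, which binds β-catenin, by 1.19, and the phospholipase Plcb3 by 1.03, the last with detection on 1 secretory-stage array and a difference of 0.36 without background correction. A further probe of Tax1bp3, detected on 1 array in all, had a difference of 0.38 and was not called.

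**Figure D4:**
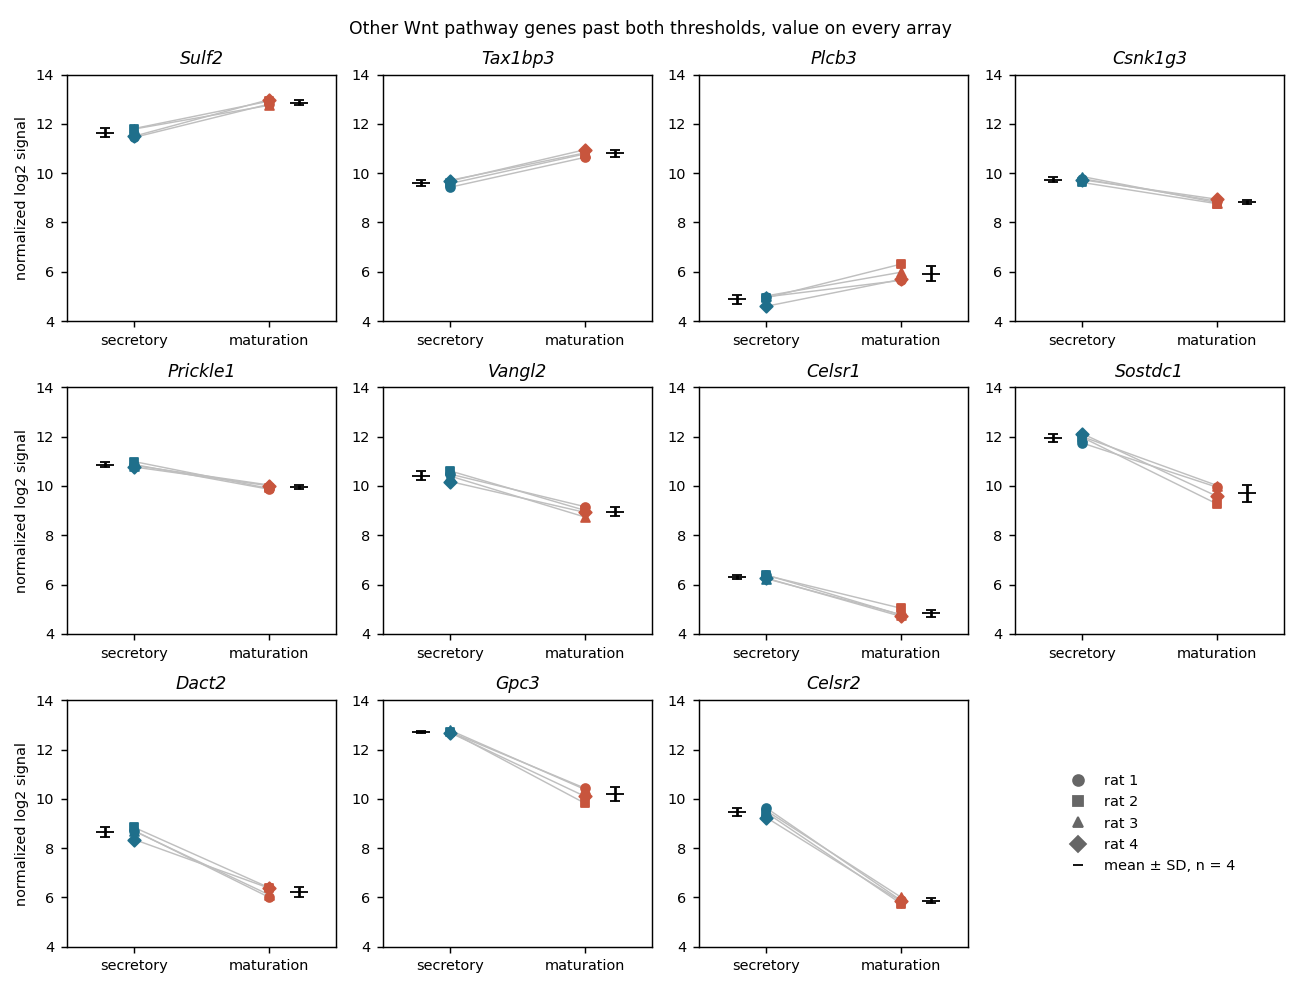
Normalized log2 signal (y axis) of the 11 called probes from the list of further Wnt pathway genes on every array, with the stages on the x axis, a marker shape and a grey line for each rat, and black bars for the mean ± SD of the 4 arrays. The 3 probes called higher (Sulf2, Tax1bp3, Plcb3) and the 8 called lower have separate stages in every panel.

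Genes that the pathway is known to switch on were counted in a list of 28 symbols, also drawn up with earlier results known, of which 21 were on the array. In this list 6 were called lower and 1 higher (33.3%, against 7.75% of all probes), but 5 of the 7 are members already described (Wisp1, Tcf7, Dkk1, Axin2 and Wisp2). Of the 15 that are not members, 2 (13.3%) were called, Sostdc1 and Bambi, a decoy receptor of the TGF-β and BMP pathways that fell by 0.98 on the log2 scale (difference -0.98, adjusted p = 1.66e-05 from limma). Myc had a difference of -0.22 (interval -0.44 to 0.00), Ccnd1 of 0.24 (interval -0.02 to 0.50), Cd44 of 0.06 (interval -0.11 to 0.23) and Nkd1 of -0.05 (interval -0.41 to 0.30), with detection on all arrays and no call. Notum, an enzyme that inactivates Wnt ligands, differed by -0.67 (adjusted p = 0.0134 from limma) without reaching 1.8-fold. Edn1, the gene of the peptide endothelin-1, differed the other way, by 0.59 (adjusted p = 0.00988 from limma), also short of 1.8-fold, and Lgr5 and Sp5 were undetected on all arrays. The listed targets thus did not share a direction.

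The processing moved some sizes more than others, as the plot of the called probes under each setting shows. Fzd1 ran from 1.07 to 1.46 over the settings of background and normalization, and Sfrp2 from -3.06 to -2.82. For Wisp2 the range was 1.87 to 3.53 and for Axin2 -1.38 to -0.52. Wisp1 ran from -2.70 to -1.78 and Wnt10b from 1.17 to 2.25.

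**Figure D5:**
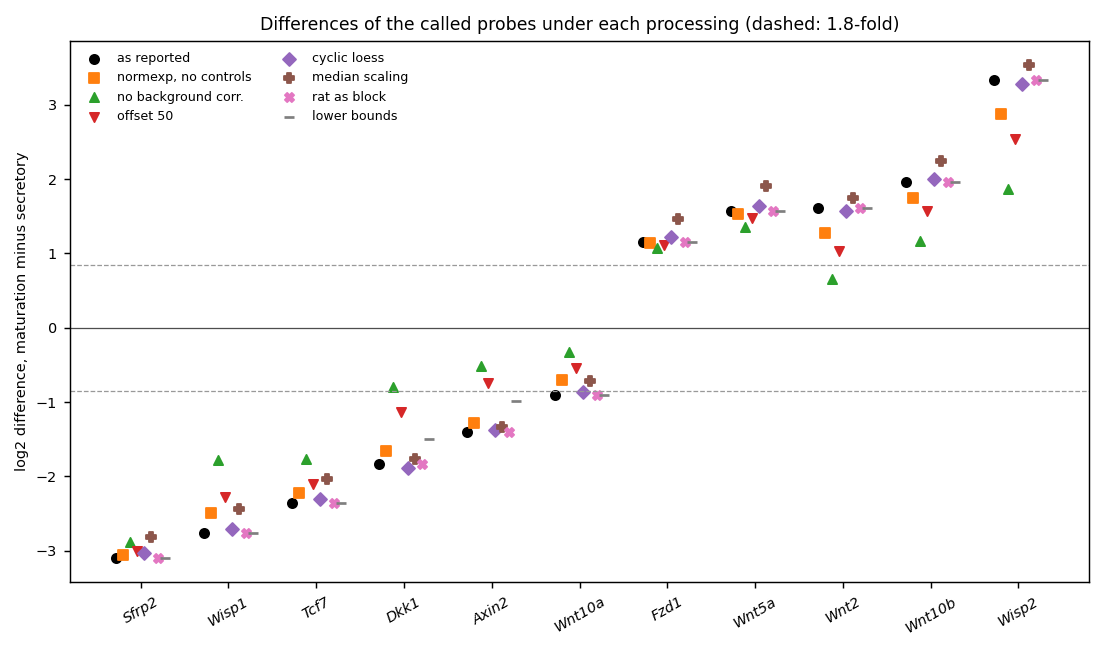
Log2 difference (y axis, maturation minus secretory) of the 11 called Wnt pathway probes (x axis) as reported and under 7 other settings of background correction, normalization, pairing and undetected probes, each with its own marker. The dashed lines stand at 1.8-fold, and no probe changes its direction, while Wnt10a, Axin2, Dkk1 and Wnt2 come inside the lines under 1 or more settings.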

How the data were processed

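RNA from enamel organs of the secretory stage (4 samples) and the maturation stage (4 samples) was hybridized to 8 RatRef-12 v1 arrays. The mean bead signal of each probe was deposited by the authors as an intensity, neither background-corrected nor normalized between arrays. Beside it they deposited detection p-values, the count of beads behind each mean and a standard error over those beads, a score in signal units. The bead summary software and the genome build are not given in the sources used here. Stage and replicate came from titles and descriptions.

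The neqc function of limma 3.58.1 (R 4.3.3) was applied, which here infers the negative controls from detection p-values, corrects the background by normexp, adds an offset (set to 16), normalizes by quantiles and gives log2 values. The 22523 probes were tested unpaired with lmFit and eBayes, with Benjamini-Hochberg adjustment. Probes undetected on all arrays of a stage are given as lower bounds, with each array of that stage set at its dimmest detected probe. Such a bound holds for this processing only and does not cover the spread between rats. A Student test is named in the study's methods, with no word on pairing. Samples with the same replicate number came from 1 rat and are therefore pairs. In the 11233 probes with detection on 4 or more arrays, the deviations of such a pair from their stage means correlated at 0.195, 0.129, 0.219 and 0.234, against -0.0799 to -0.0406 with the other rats, and the rat was taken as a block in another fit. The p-values measure the spread between these animals.

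The members and lists were chosen with earlier results of these data known. All members are accounted for, by role. Called members are given on every array, up to 12 others detected on all arrays of a stage by adjusted p, and other pathway genes where called. Current symbols and neighbours came from the RefSeq gene table of GRCr8 by gene ID (17430 probes matched), and 2 probes whose symbol and gene ID name different genes were left out of the lists. Chromosomes are those of the array annotation. Marker lists covered secretory and maturation ameloblasts, macrophages and leukocytes, fibroblasts and dental mesenchyme, odontoblasts and osteoblasts, endothelium, skeletal muscle (1 of 8 called, lower), erythroid cells (0 of 3, with 1 at an unadjusted p below 0.05 in limma) and the cell cycle. Exact permutation tests were run in scipy 1.17.1 (Python 3.11.15). Tested on simulated data for this comparison with 200 changed probes of 22523, limma recovered 94.0% and made 8 false calls. These were counted by adjusted p alone, without the fold threshold. The changes were planted only in probes detected on 4 or more arrays, with no rat effect, so the recovery of dimmer probes is not given. The number of arrays limits the precision. The alternatives were a larger offset (50), normexp without controls, quantile normalization without background correction, median scaling, cyclic loess, a detection filter, the methods' t-test, the rat as a block, lower bounds, no fold threshold and each array left out. Leaving out maturation replicates 1 and 4 together was added after the data were seen.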

Additional observations from a re-analysis of the deposited data

Results flagged for a closer look

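Of 62 groups of 4 values examined (the Wnt pathway probes in each stage where they were detected), 3 held a value far from the other 3 by Dixon's test at its 95% critical value, where about 3.1 are given by chance. Wnt6 stood at 8.97 in secretory replicate 1, against 8.68 to 8.70 in the other secretory-stage samples. For Sfrp4 the value apart was that of maturation replicate 1, 8.85, below the 9.08 to 9.12 of the others, and for Wnt11 it was that of maturation replicate 4, 6.11, below 6.42 to 6.48. None of these 3 probes was called between the stages.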

How the results depend on the processing

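No called Wnt pathway probe changed direction, and of 197 values of these probes under other settings 178 kept their call and 19 lost it. Fzd1, Sfrp2, Tcf7, Wisp1, Wisp2, Wnt10b and Wnt5a kept theirs in all 18 settings. Wnt10a was lost in 7 of 18, Dkk1 in 9 of 17 (a filter on detection on 4 arrays removes it), Axin2 in 2 and Wnt2 in 1. Without background correction 4 member probes were higher and 3 lower, and with an offset of 50, which also shrinks differences of dim probes, 5 and 3. Median scaling gave 6 and 5 members, and 7 and 6 further pathway probes; it moved the share of higher calls among all called probes from 59.3% to 77.6%. With no fold threshold 9 further pathway probes were higher and 21 lower. With each array left out in turn, 5 to 5 members were higher and 4 to 6 lower, and 3 to 4 and 8 to 9 further pathway probes. The methods' t-test gave 5 and 5 members. The rat as a replicate block gave 5 higher and 6 lower members and 3 and 8 further probes, and the 11 called probes of each list were the same with and without it. The median difference of all probes stayed between -0.072 and 0.002 over these settings. Wisp1, Wisp2, Wnt2, Wnt10a, Wnt10b, Axin2 and Dkk1 had signals near the background in at least 1 stage, which limits the size that can be given for their differences.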
